A study of Mus musculus with 8 samples.

Results

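Park7, Pink1, Lrrk2, Vps35, Fbxo7, Atp13a2 and Uchl1 are mouse counterparts of genes linked to inherited Parkinson disease (PD). They were chosen by symbol, and the 7 genes were all found among the 31053 genes of the count matrices. Their transcripts were followed in single-cell RNA-seq of SN4741, a clonal mouse line from embryonic substantia nigra, which carries a transgene that puts the temperature-sensitive T antigen SV40Tag-tsA58 under the promoter region of tyrosine hydroxylase (Th) and has the genotype label WT. In the group called 37 °C, 4 libraries came from undifferentiated cultures kept in 10% fetal bovine serum (FBS). In the group called 39 °C, 4 libraries came from cultures moved for 48 h to the non-permissive temperature in 0.5% FBS, so the heat shift and the serum reduction cannot be told apart. The line is 1 clone and the study's karyotyping found it polyploid and unstable, so the copy number of these genes in a given cell is unknown.

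PD is the loss of dopaminergic neurons of the substantia nigra, and the genes behind its inherited forms meet in a few cellular systems. PINK1 is a kinase that gathers on damaged mitochondria and starts their removal by autophagy (mitophagy), and the PARK7 protein (DJ-1) responds to oxidative stress. VPS35 is the core of the retromer, which returns cargo from endosomes, LRRK2 is a kinase of Rab GTPases, and ATP13A2 exports polyamines from lysosomes. FBXO7 is a substrate adaptor of SCF ubiquitin ligases, and UCHL1 is a ubiquitin hydrolase that is abundant in neurons.

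After the study's limits on cell quality, 18351 of 19125 cells were used, 8550 at 37 °C and 9801 at 39 °C. A library held 985 to 3494 cells and 17166686 to 29633818 unique molecular identifiers (UMIs, each a counted transcript), with a median of 6676 to 16665 UMIs per cell. Replicate 1 at 39 °C had the fewest cells and the highest median depth. Of the neural precursor markers the label calls for, Nes, Sox2, Vim and Hes1 were present in every library. Hes5 had 0 UMIs, Pax6 had 3, Fabp7 had 6 and Msi1 had 12 in all. Nes lay at 430 to 538 CPM (counts per 1000000 counts of a library) at 37 °C and 105 to 117 CPM at 39 °C. Sox2 (52.0 to 57.2 and 72.6 to 80.7 CPM) and Hes1 (96.0 to 148 and 163 to 285 CPM) went the other way, and the ranges of Vim overlapped. Defining dopaminergic markers were nearly absent, with 7 UMIs of Th, 2 of Slc6a3 and 1 of Ddc in all cells. En1, Foxa2 and Nr4a2, however, passed 1 CPM in every library. Mesenchymal markers were abundant, 8 genes summing to 2144 to 2206 CPM at 37 °C and 890.0 to 927 CPM at 39 °C (6 of the 8 passed 1 CPM in every library, and Thy1 had 4 UMIs). The neuronal list summed to 165 to 194 CPM at 37 °C and 79.7 to 98.1 CPM at 39 °C, mainly from Stmn2. Of its 8 genes, 3 passed 1 CPM in every library: Stmn2 (17880 UMIs in all), Map2 (8673) and Tubb3 (2558). Dcx had 0 UMIs and Snap25 had 1. The median mitochondrial share of a cell's UMIs was 7.55 to 7.89% at 37 °C and 8.04 to 8.85% at 39 °C. The part of these shifts in the results that follow was not tested.

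Park7, Pink1 and Atp13a2 lie on chromosome 4 (GRCm38), and none of the others share a chromosome. The genes stand at chr4:150897133-150914437 on the minus strand (Park7), chr4:138313409-138326307 on the minus strand (Pink1), chr4:140986873-141007330 on the plus strand (Atp13a2), chr15:91673175-91816120 on the plus strand (Lrrk2), chr8:85260392-85299802 on the minus strand (Vps35), chr10:86021972-86051873 on the plus strand (Fbxo7) and chr5:66676091-66687234 on the plus strand (Uchl1). RefSeq promoter windows of this build were at hand for 6 of the 7 (all but Vps35). Pink1 and Atp13a2 are shown because they rose together at 39 °C and are neighbours in the order of levels, and Uchl1 because it fell by the largest factor of the 7. The stretches of Lrrk2, which also rose, and Park7, which also fell, are not printed. Each line gives the 100 bases ahead of the annotated gene start, 5′ to 3′ on the gene's strand, with CG dinucleotides in capitals.
Pink1, chr4:138326308-138326407, minus strand: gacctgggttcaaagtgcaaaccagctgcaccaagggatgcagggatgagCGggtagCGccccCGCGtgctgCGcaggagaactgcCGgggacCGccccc
Atp13a2, chr4:140986773-140986872, plus strand: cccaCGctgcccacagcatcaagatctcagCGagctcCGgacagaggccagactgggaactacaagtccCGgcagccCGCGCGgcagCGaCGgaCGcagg
Uchl1, chr5:66675991-66676090, plus strand: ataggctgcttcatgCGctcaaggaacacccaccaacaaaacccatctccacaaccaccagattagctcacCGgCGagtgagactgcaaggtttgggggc

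These stretches hold 7 CG dinucleotides in Pink1, 10 in Atp13a2 and 3 in Uchl1. Over the full windows (250 bases before to 50 after a RefSeq start), GC content was lowest in Uchl1, at 50.7%, against 58.0 to 70.3% in the windows of Pink1, Park7, Atp13a2, Fbxo7 and Lrrk2, with a median of 52.7% over all 32851 windows. A search of both strands for TCACGTGA, the core of the lysosomal CLEAR element, found it in 1 of 7 windows, that of Fbxo7, and in 0.974% of all windows. TGACNNNGC (antioxidant response element), TTTNNCGC (E2F-like), TGACGTCA (CRE) and GCGCATGC (core of the NRF1 motif) were in 0 of the 7 windows and in 12.4%, 5.17%, 1.79% and 2.71% of all windows. A match is a description of letters and shows no binding.

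Counts were summed over the cells of each library and scaled to CPM. Since the kit counts 1 tag at the 3′ end of a molecule, CPM of different genes were set side by side without a length correction. Whether the genes are captured alike was not tested, so the order is one of counts. At 37 °C the genes fell into a wide order. Park7 led with 242 ± 12.7 CPM (mean ± SD, n = 4 libraries, as for all such values), above 96.4% of the genes tested, and Vps35 followed with 181 ± 5.47 CPM. Pink1 (31.8 ± 1.20 CPM), Atp13a2 (20.8 ± 0.556 CPM), Lrrk2 (15.1 ± 1.62 CPM), Fbxo7 (13.8 ± 0.725 CPM) and Uchl1 (10.9 ± 1.20 CPM) were lower. The libraries of neighbouring genes did not overlap in this order, except those of Lrrk2 (13.1 to 16.9 CPM) and Fbxo7 (13.0 to 14.7 CPM). At 39 °C the order was the same and no neighbours overlapped, with Park7 at 198 ± 17.1 CPM and Uchl1 at 4.43 ± 0.820 CPM. Uchl1, a gene known for its abundance in neurons, was the rarest of the 7 at both temperatures, with 1638 UMIs in all cells against 46793 of Park7.

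Between the temperatures, 3 of the 7 genes rose at 39 °C (Pink1, Atp13a2 and Lrrk2), 3 fell (Uchl1, Park7 and Vps35) and Fbxo7 did not pass the test. The comparison asks how the transcriptome changes when the cells leave the permissive condition, and it moved most genes. In all cells, 62% of 15810 tested genes had an adjusted p under 0.05 and are termed called (edgeR's quasi-likelihood test with Benjamini-Hochberg adjustment over all genes tested), 31.5% higher and 30.5% lower, and 56.7% had libraries that did not overlap between temperatures. The 6 of 7 called and 6 of 7 not overlapping are to be read against those shares, which are high already. None of the 7 passed a stricter rule in this fit, an adjusted p under 0.01 with a log2 fold change over 1.5 in size. That rule was passed by 5.83% of all genes. With a limit of 10% on mitochondrial UMIs Uchl1 passed it (log2 fold change -1.58, edgeR adjusted p 3.73e-10), where 971 of 15651 genes did. The labels do not say whether replicates were separate cultures, so the p-values measure the spread between these libraries, which may be technical.

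**Figure D1:**
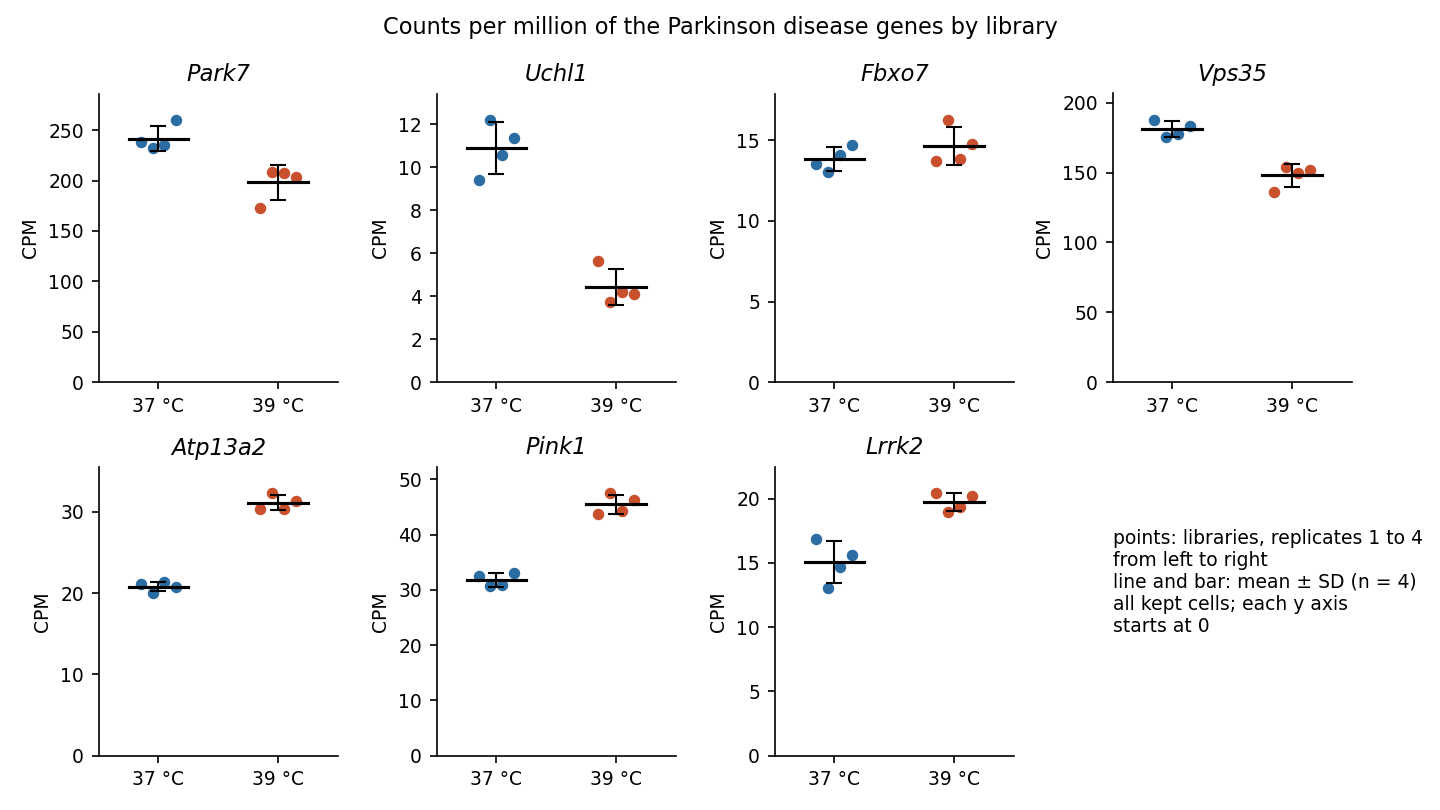
CPM of each of the 7 genes in the 8 libraries (y axis, starting at 0; x axis, temperature group), with replicates 1 to 4 from left to right and the mean ± SD (n = 4). Libraries of the temperature groups are apart for every gene but Fbxo7, with Uchl1 at 9.39 to 12.2 CPM at 37 °C and 3.75 to 5.62 CPM at 39 °C.

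Of the mitochondrial and redox genes, Pink1 rose and Park7 fell. Pink1 had 32.5, 30.6, 31.0 and 33.1 CPM in replicates 1 to 4 at 37 °C and 43.7, 47.5, 44.3 and 46.3 CPM at 39 °C. All 39 °C libraries lay above all 37 °C libraries, with a log2 fold change of 0.52 (SE 0.048), or 1.43-fold, and an adjusted p of 1.55e-08 in edgeR. Park7, which codes for DJ-1, had 239, 232, 235 and 260.3 CPM at 37 °C and 173, 209, 208 and 204 CPM at 39 °C. Replicate 1 at 39 °C was the lowest of its group by a wide gap, and the groups did not overlap. The log2 fold change of Park7 was -0.28 (SE 0.060, edgeR adjusted p 0.00037) with all libraries and -0.23 (edgeR adjusted p 0.000278) without that replicate.

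Of the endosomal and lysosomal genes, Atp13a2 and Lrrk2 rose and Vps35 fell. Atp13a2, the lysosomal polyamine exporter, had 21.1, 20.04, 21.3 and 20.7 CPM at 37 °C and 30.4, 32.3, 30.3 and 31.4 CPM at 39 °C. The libraries of each temperature lay close together, and the rise of 0.58 on the log2 scale (SE 0.049, 1.496-fold, edgeR adjusted p 3.49e-09) was the largest of the 7. Lrrk2, the Rab kinase, had 16.9, 13.1, 14.7 and 15.7 CPM at 37 °C and 20.4, 19.0, 19.3 and 20.2 CPM at 39 °C. Its log2 fold change was 0.38 (SE 0.069, edgeR adjusted p 7.1e-05), and the 37 °C libraries were the more spread. Vps35, the retromer core, had 188, 176, 178 and 184 CPM at 37 °C and 136, 154, 150 and 152 CPM at 39 °C. Replicate 1 at 39 °C was again the lowest, and the log2 fold change was -0.29 (SE 0.049, edgeR adjusted p 3e-05).

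Of the ubiquitin genes, Uchl1 fell and Fbxo7 showed no change that passed the test. Uchl1 had 9.39, 12.2, 10.6 and 11.4 CPM at 37 °C and 5.62, 3.75, 4.21 and 4.12 CPM at 39 °C, from 274 to 324 UMIs per library at 37 °C and 99 to 119 at 39 °C. The groups were far apart, the level at 39 °C being 0.400 of that at 37 °C (log2 fold change -1.32, SE 0.108, edgeR adjusted p 2.57e-09). Fbxo7 had 13.5, 13.0, 14.1 and 14.7 CPM at 37 °C and 13.7, 16.3, 13.8 and 14.8 CPM at 39 °C. These ranges overlap, and the log2 fold change was 0.09 with a 95% interval of -0.06 to 0.23 (edgeR adjusted p 0.284), so a rise of up to 0.23 on the log2 scale is within that interval.

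Seurat's scoring placed 24.1 ± 3.41% of cells in G1 at 37 °C and 84.3 ± 1.22% at 39 °C (SD, n = 4), so the temperatures were also compared in cells assigned to G1 alone. There Uchl1, Park7 and Vps35 were lower and Atp13a2 and Pink1 higher at 39 °C, 5 of 7 called where 47.1% of 14712 genes were, 24.8% higher and 22.4% lower. Uchl1 stood at -1.48 on the log2 scale (SE 0.160, edgeR adjusted p 6.89e-08), with 8.33 to 13.9 CPM at 37 °C and 3.48 to 5.17 CPM at 39 °C. Park7 stood at -0.30 (SE 0.061, edgeR adjusted p 0.000322) and Vps35 at -0.23 (SE 0.053, edgeR adjusted p 0.00111). In all cells Uchl1 stood at -1.32, Park7 at -0.28 and Vps35 at -0.29.

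Pink1, Atp13a2 and Lrrk2 had smaller fold changes in G1 cells than in all cells. Pink1 went from 41.0 ± 2.56 to 48.3 ± 1.58 CPM (log2 fold change 0.23, SE 0.060, edgeR adjusted p 0.00256). Atp13a2 went from 24.8 ± 1.97 to 32.9 ± 0.884 CPM (log2 fold change 0.40, SE 0.069, edgeR adjusted p 3.84e-05). Lrrk2 had 22.5, 14.1, 18.4 and 18.5 CPM at 37 °C and 21.4, 19.5, 19.5 and 21.3 CPM at 39 °C. Its ranges overlapped and the log2 fold change of 0.12 (95% interval -0.08 to 0.32, edgeR adjusted p 0.313) was not called. Without replicate 1 at 37 °C, the highest of all for Lrrk2 in G1 cells, it was 0.25 (edgeR adjusted p 0.0465), and without replicate 2 it was 0.02. Fbxo7 stood at -0.01 (95% interval -0.23 to 0.21). The difference between the fits in all cells and in G1 cells was not tested, since G1 cells enter both.

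**Figure D2:**
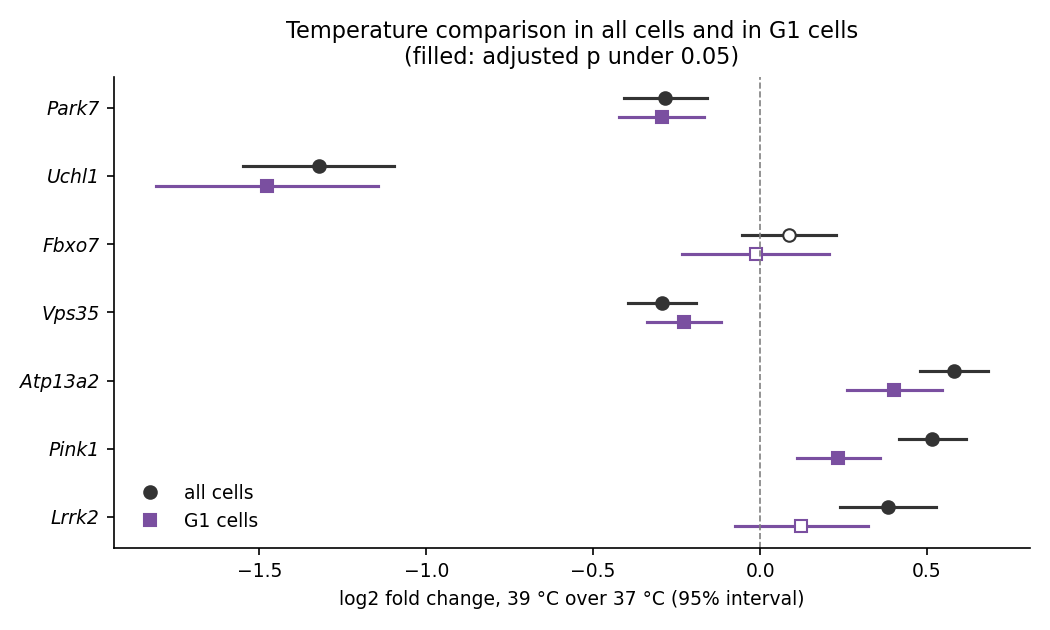
Log2 fold change of 39 °C over 37 °C (x axis) with its 95% interval for each gene (y axis) in all cells (circles) and in G1 cells (squares), filled where the edgeR adjusted p is under 0.05. Uchl1 lies at -1.32 and -1.48, while Lrrk2 goes from 0.38 in all cells to 0.12 in G1 cells.

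Within a temperature, Pink1 was lower in S than in G1 cells and lower in G2M than in G1 cells at 37 °C, while its calls at 39 °C depended on how phases were assigned. None of the 7 genes is in the lists that score the phases. At 37 °C, 3 of 7 genes differed between S and G1 cells, where 45% of 14172 genes were called in one fit over the sums of each phase and library. Atp13a2 fell by 0.51 (SE 0.089, edgeR adjusted p 1.17e-06), Pink1 by 0.43 (SE 0.066, edgeR adjusted p 5.53e-08) and Lrrk2 by 0.32 (SE 0.092, edgeR adjusted p 0.00264) on the log2 scale. Lrrk2 was not called without replicate 1 at 37 °C (log2 fold change -0.21, edgeR adjusted p 0.127), and with phases assigned within each library it stood at -0.21 (edgeR adjusted p 0.0438).

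Between G2M and G1 cells at 37 °C, 5 of 7 genes differed, where 43.5% of all genes did. Pink1 had 38.8 to 44.0 CPM in G1 cells and 26.7 to 30.1 CPM in G2M cells (log2 fold change -0.56, SE 0.067, edgeR adjusted p 2.88e-11). Lrrk2 fell by 0.48, Fbxo7 by 0.33 and Park7 by 0.14, while Vps35 rose by 0.15 (from 177 ± 7.24 to 197 ± 4.03 CPM), all on the log2 scale. Fbxo7 was not called without replicate 1 at 37 °C (edgeR adjusted p 0.0846). Vps35 was thus the only one of the 7 called higher in G2M than in G1 cells in this fit.

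At 39 °C, S cells differed from G1 cells in 4 of 7 genes, against 37.3% of all genes. Atp13a2 (log2 fold change -0.50) and Pink1 (-0.44) were lower in S cells and Uchl1 (0.82) and Vps35 (0.11) were higher. The call of Vps35 had an edgeR adjusted p of 0.0475 and was lost when any 1 library but replicate 4 at 39 °C was left out. Without that replicate Uchl1 stood at 0.50 and was not called (edgeR adjusted p 0.121). With phases assigned within each library, Pink1 was at -0.13 and not called (edgeR adjusted p 0.0653), and Atp13a2 was at -0.26 (edgeR adjusted p 0.00239). G2M cells at 39 °C were few, 29 to 187 per library, and 2 of 7 genes were called against 26.5% of all genes. These were Pink1 (log2 fold change -0.76, SE 0.122, edgeR adjusted p 4.06e-07) and Atp13a2 (-0.37, edgeR adjusted p 0.0445), and Atp13a2 was not called without replicate 2, 3 or 4 at 39 °C. With phases assigned within each library neither was called, Pink1 standing at -0.18 (edgeR adjusted p 0.0517) and Atp13a2 at 0.14.

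A test of whether the step from G1 to S differed between the temperatures called 1 of 7 genes, Uchl1, where 9.95% of all genes were called. Uchl1 had 8.64 to 12.04 CPM in S and 8.49 to 14.3 CPM in G1 cells at 37 °C. At 39 °C it had 7.99, 5.06, 5.51 and 9.91 CPM in S cells against 5.12, 3.66, 4.15 and 3.47 CPM in G1 cells of replicates 1 to 4. The S value was the higher one in all 4 libraries at 39 °C, from 14 to 30 UMIs per library, and replicate 4 was the highest. The difference of the log2 fold changes was 0.95 (SE 0.242, edgeR adjusted p 0.00389), and 0.64 (edgeR adjusted p 0.167) without replicate 4 at 39 °C. The same test for G2M called 0 of 7 genes in edgeR against 7.06% of all genes, with 1 of 7 (Park7) at an unadjusted p under 0.05. Uchl1 rested there on 3 to 6 UMIs per 39 °C library. When phases were assigned within each library, 3 of 7 (Pink1, Lrrk2 and Vps35) were called in the G2M test, where 16.7% of all genes were.

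**Figure D3:**
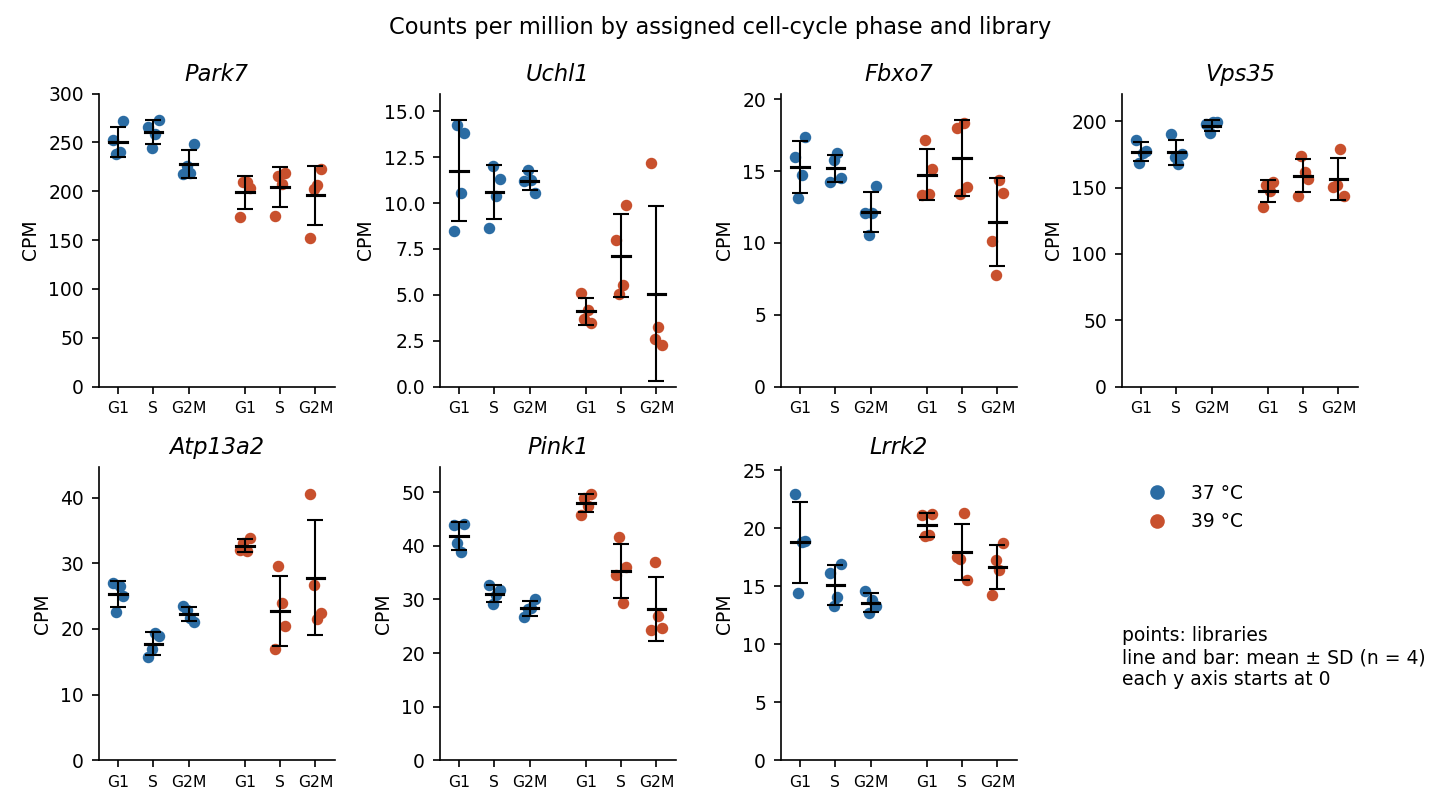
CPM of the 7 genes (y axis, starting at 0) in cells assigned to G1, S and G2M (x axis) at 37 °C (blue) and 39 °C (orange), with points for libraries and the mean ± SD (n = 4). Pink1 is highest in G1 cells at both temperatures (41.8 and 48.0 CPM), and the 39 °C values in G2M cells have the largest SD for every gene but Lrrk2.

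Cells with at least 1 UMI of a gene were counted after each cell was thinned to 5000 UMIs, which left out the 668 cells at 37 °C and 1668 at 39 °C that had fewer. Park7 was found in 67.6 ± 1.61% of cells at 37 °C and 62.0 ± 2.85% at 39 °C (SD, n = 4), and Vps35 in 58.6 ± 1.74% and 52.0 ± 2.30%. Pink1 went from 15.3 ± 0.499% to 20.7 ± 0.359%, Atp13a2 from 9.89 ± 0.310% to 14.2 ± 0.675% and Lrrk2 from 7.43 ± 1.16% to 9.63 ± 0.541%. Fbxo7 was found in 6.41 ± 0.525% and 6.71 ± 0.868% and Uchl1 in 4.82 ± 0.774% and 1.91 ± 0.367% of cells. The libraries of the temperatures were apart for all of the 7 but Fbxo7, in the directions of the CPM. Only the 7 were thinned, so no share over all genes stands beside this. In CPM, 56.7% of all genes were apart.

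Without thinning, Park7 was found in 88.1% of cells at 37 °C and 78.0% at 39 °C, Vps35 in 84.0% and 72.6%, and Uchl1 in 10.8% and 3.76%. Pink1 was found in 33.0% and 37.8%, Atp13a2 in 22.9% and 26.8%, Lrrk2 in 17.9% and 18.9%, and Fbxo7 in 16.6% and 14.7%, so Fbxo7 was lower at 39 °C here and higher in the thinned cells, with a gap smaller than the SD of its libraries both times. RNA released into the droplets can give a UMI in a cell that does not express a gene. The culture is 1 line and holds no cell type known to lack these genes, so no background share could be set beside them, which bears most on Uchl1. Thinned to 5000 UMIs, a cell at 37 °C held UMIs of 1.65 to 1.74 of the 7 genes on average and one at 39 °C of 1.59 to 1.72, and 7.24 to 8.88% and 9.61 to 13.0% of cells held none. At most 6 of the 7 were seen in 1 cell.

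Uchl1 was the most unevenly spread of the 7 over cells. A gene whose UMIs fall at random into cells of equal depth has a variance equal to its mean. In the thinned cells the variance divided by the mean was 0.966 to 1.13 over the 8 libraries for Park7, Pink1, Lrrk2, Vps35, Fbxo7 and Atp13a2. For Uchl1 it was 1.29, 1.45, 1.43 and 1.27 at 37 °C and 1.97, 1.34, 1.17 and 1.20 at 39 °C. Every library of Uchl1 lay above all libraries of the other genes. The highest value, in replicate 1 at 39 °C, rests on 949 cells, 2.32% of which held Uchl1. With cells thinned to 2000 UMIs the ratio of Uchl1 was 0.989 to 1.24 over the libraries and that of the other genes 0.929 to 1.09, so the ranges overlapped. Before thinning, single cells held up to 10 UMIs of Uchl1 at 37 °C and up to 8 at 39 °C, and 6 cells at 37 °C (5 of them in replicate 2) and 2 at 39 °C had 5 or more.

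**Figure D4:**
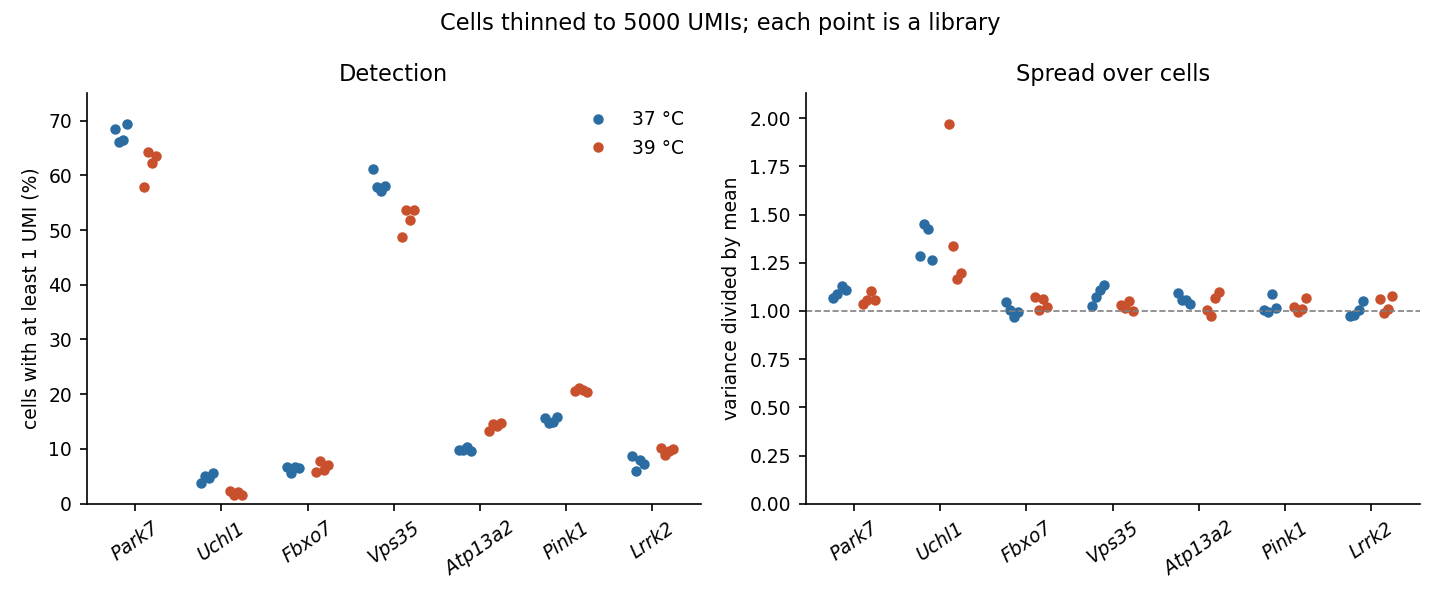
Left, the percentage of cells with at least 1 UMI of each gene, and right, the variance over cells divided by the mean, in cells thinned to 5000 UMIs, with a point for each library and the value 1 as a dashed line. Uchl1 has the lowest detection, 1.55 to 5.67%, and the highest ratios, 1.17 to 1.97.

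Over single cells the 7 genes hardly moved together. In the 21 pairs, Pearson's r of log-normalized counts, averaged over the 8 libraries, ran from -0.0127 (Lrrk2 and Uchl1) to 0.0391 (Pink1 and Atp13a2). Values this near 0 in sparse counts are no finding. Of 6179 genes found in at least 20% of cells, those most like Park7 over cells were S100a6 (mean r 0.227, 0.138 to 0.348 over the libraries), Txn1 (thioredoxin, mean r 0.212) and Tspo (mean r 0.209). For Atp13a2 they were 1700007K13Rik (mean r 0.145), Dcxr (0.143) and Pltp (0.135). The highest mean r of Pink1 (Slit2), Lrrk2 (Samd12), Vps35 (Bri3), Fbxo7 (Serpinb1a) and Uchl1 (Fbln5) was 0.0590 to 0.104. Cells of a library differ in depth and are not replicates, so these values describe the cells and carry no test.

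Over the 8 libraries, after the mean of each temperature was taken away, the genes of at least 50 CPM most like each of the 7 were P3h4, Edf1 and Eif1 for Park7, Camsap1, Tnks1bp1 and Cdv3 for Pink1, and Canx, Rnf169 and Kmt2a for Lrrk2. For Vps35 they were Scand1, Raph1 and Hint2, for Fbxo7 Zfr, Ecm1 and Pla2g16, for Atp13a2 Sh3bp1, Vgll4 and Anapc2, and for Uchl1 Rif1, Mcm7 and Matr3. Their r was 0.903 to 0.996, the highest of about 3321 genes over 8 libraries. The libraries also differ in depth and cell number, so r is given as a description alone.

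Genes that overlap the 7 on the genome had their own courses. Orc6, a subunit of the origin recognition complex, overlaps the start of Vps35 on the opposite strand. It fell from 111 ± 6.39 to 44.9 ± 2.54 CPM (log2 fold change -1.30, SE 0.054, edgeR adjusted p 1.11e-13), against -0.29 for Vps35. Uchl1os, an antisense RNA over the start of Uchl1, had 2 UMIs at 37 °C and 0 at 39 °C. A230060F14Rik, antisense to Fbxo7, had 31 and 16 UMIs. On chromosome 4, which holds Park7, Pink1 and Atp13a2, the median log2 fold change of 941 genes was 0.01, with 31.2% called higher and 31.0% lower, close to all genes (median 0.02).

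Lists of genes that work with the 7 were set beside all genes tested, of which 31.5% rose and 30.5% fell in all cells, and 24.8% rose and 22.4% fell in G1 cells. Of 34 genes of mitophagy and mitochondrial quality, 12 rose, 16 fell and 6 did not pass the test in all cells, with a median log2 fold change of -0.09 against 0.02 over all genes. Ulk1, a kinase that starts autophagy, went from 25.4 ± 2.15 to 45.7 ± 5.05 CPM (log2 fold change 0.84, SE 0.071, edgeR adjusted p 4e-09). Tomm40, the import pore of the outer mitochondrial membrane, fell by 0.80, and Fis1, a receptor of mitochondrial fission, fell by 0.62 on the log2 scale. In G1 cells 8 rose and 11 fell, with Ulk1 at 0.93, Tomm40 at -0.40 and Fis1 at -0.53.

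Of 22 genes of oxidative defence around Park7, 15 fell (30.5% of all genes did), 4 rose (31.5% of all genes did) and 3 did not pass, with a median of -0.26. The peroxiredoxins Prdx4 (log2 fold change -0.87, from 323 ± 13.9 to 177 ± 5.29 CPM) and Prdx2 (-0.83, from 373 ± 20.3 to 209 ± 2.99 CPM) fell, while Gclc, the catalytic subunit of the enzyme that limits glutathione synthesis, rose from 82.5 ± 5.86 to 172 ± 4.71 CPM (1.06). In G1 cells 12 fell and 4 rose, beside 22.4% and 24.8% of all genes, with a median of -0.20.

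Around Vps35, of 19 genes of the retromer and the WASH complex, 6 rose, 4 fell and 9 did not pass, with a median of 0.07. Vps29, which forms the retromer core with Vps35, fell by 0.47 (from 174 ± 6.05 to 126 ± 4.66 CPM) and Snx5, a sorting nexin, fell by 0.76 on the log2 scale. Sort1, a cargo receptor, rose by 0.50 (edgeR adjusted p 0.0323) at a level of about 1 CPM, from 0.852 ± 0.172 to 1.22 ± 0.0702 CPM. It was not called in G1 cells (edgeR adjusted p 0.244). In G1 cells 2 of the 19 genes rose, 4 fell and 13 did not pass, with a median of -0.02. Of all genes, 24.8% rose and 22.4% fell there.

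Of 11 genes tested among 13 P-type ATPases and lysosomal genes, 6 rose (31.5% of all genes did), 1 fell (30.5% of all genes did) and 4 did not pass, with a median of 0.16. Ctsd, a lysosomal protease, went from 423 ± 14.7 to 650 ± 19.8 CPM (log2 fold change 0.62) and Lamp2, a lysosomal membrane protein, from 181 ± 6.96 to 277 ± 11.3 CPM (0.61). Hdac6, the deacetylase that takes part in the meeting of autophagosome and lysosome, fell by 0.59 on the log2 scale. In G1 cells 4 rose and 1 fell, beside 24.8% and 22.4% of all genes. Ctsd stood there at 0.47, Lamp2 at 0.30 and Hdac6 at -0.38.

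The list of 20 genes around Lrrk2 held Rab GTPases, 14-3-3 genes and others such as Lrrk1. Of the 20, 13 fell (30.5% of all genes did), 5 rose (31.5% of all genes did) and 2 did not pass, with a median of -0.20. In G1 cells 11 fell and 4 rose, beside 22.4% and 24.8% of all genes, with a median of -0.23. Rab29, a Rab that binds Lrrk2, went from 6.35 ± 0.508 to 2.98 ± 0.703 CPM (log2 fold change -1.13, edgeR adjusted p 1.31e-07). The 14-3-3 gene Ywhah fell by 0.84 in all cells and by 0.27 in G1 cells on the log2 scale. Rab43, a substrate of Lrrk2, rose by 0.91 at a low level, from 1.44 ± 0.0641 to 2.67 ± 0.438 CPM.

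Of 8 genes around Fbxo7, 5 fell, 1 rose and 2 did not pass, with a median of -0.23. Cdk6, a cell-cycle kinase, fell by 0.71 and Nedd8, the modifier that switches on cullin ligases, by 0.48, while Birc2 rose by 0.42 on the log2 scale. Of 12 ubiquitin hydrolases and ubiquitin genes around Uchl1, 5 fell, 2 rose and 5 did not pass, with a median of -0.10. The related hydrolases Uchl3 (from 96.8 ± 7.27 to 54.6 ± 2.67 CPM, log2 fold change -0.82) and Uchl5 (-0.77) and the proteasomal Usp14 (-0.72) fell, beside -1.32 for Uchl1. In G1 cells these 3 stood at -0.51, -0.26 and -0.38.

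Of 19 further genes of inherited parkinsonism, 17 were tested, 6 rose, 6 fell and 5 did not pass, with a median of 0.03. Tbk1, Htra2 and Dnajc13 also stand in the mitochondrial or retromer list. Synj1, a phosphatase of synaptic vesicle recycling, rose from 22.7 ± 0.386 to 32.4 ± 1.55 CPM and Htra2, a mitochondrial protease, fell from 69.3 ± 3.35 to 49.6 ± 1.31 CPM. Rab39b was called as well, but on 21 UMIs at 37 °C and 2 at 39 °C, too few for a fold change to be read.

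**Figure D5:**
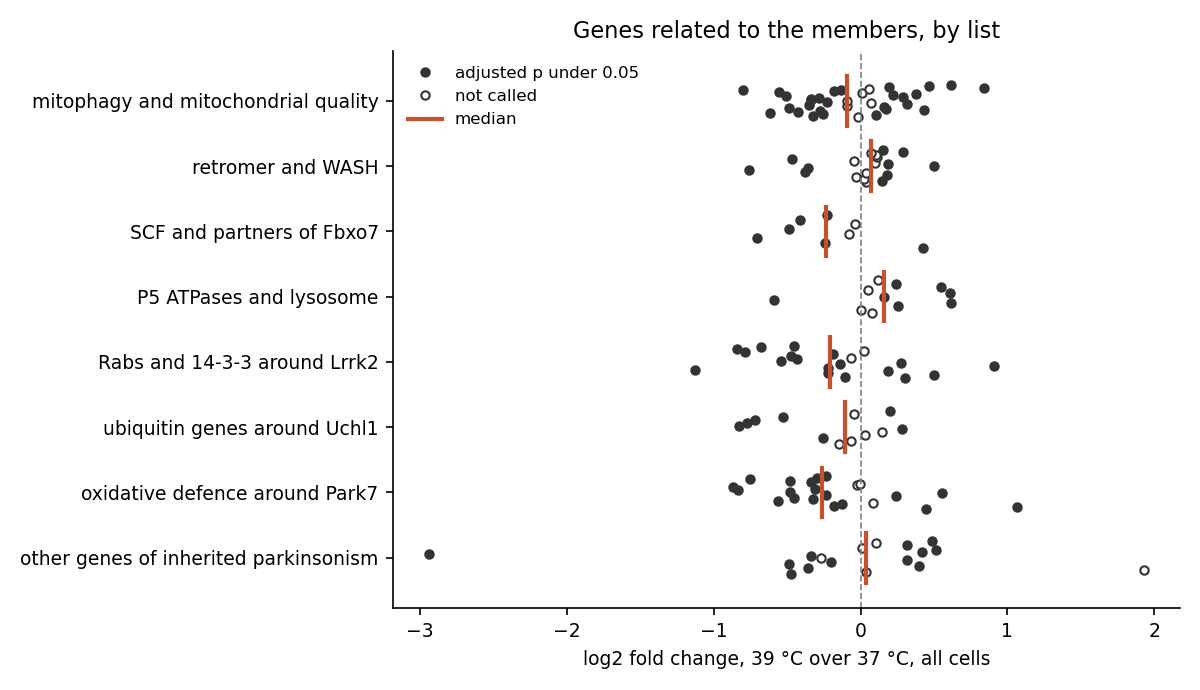
Log2 fold change of 39 °C over 37 °C in all cells (x axis) for the genes of 8 lists related to the 7 genes (y axis), filled where the edgeR adjusted p is under 0.05, with the median of each list as a bar. Oxidative defence (median -0.26) and the SCF partners (median -0.23) lie lowest, and the lysosomal list (median 0.16) highest.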

How the data were processed

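The deposited values are UMI counts per gene and cell of 8 libraries. Per the labels and the study's methods, the authors used the Chromium 3' V3 kit and Cell Ranger 3.0.1 with mm10, with no normalization. Cells with over 15% mitochondrial UMIs, under 200 or over 6000 genes were left out, the study's limits, and this upper limit was the sole step against doublets. At most 5 barcodes were shared by a pair of libraries. Counts were summed per library (all cells, or cells of a phase from Seurat 5.3.0), genes averaging 1 count or more per library were kept, and edgeR 4.0.16 in R 4.3.3 was run with TMM factors, glmQLFit and glmQLFTest. The phase fit had library as a block. Standard errors were derived from F. In simulated counts like those of all cells, 96 of 100 genes changed by 0.5 and 100 of 100 changed by 1 (log2) were recovered with 17 false calls of 15594 genes. In those like G1 cells the numbers were 88 and 100 of 100, with 21 false calls of 14440 genes. The changed genes were drawn from those with higher counts and were far fewer than the genes called in the data. Recovery at low counts, and scaling where most genes change, were therefore not tried.

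Cells were thinned without replacement. Genes were named by rule: the 7 members, up to 3 called genes with the largest change per related list, and the 3 nearest genes by each correlation. The overlapping genes follow from their positions, and markers named above are from lists written with the rest. Positions are from GENCODE M21. The members, lists and rules were chosen with earlier results of these data known. The labels name no batch. Alternatives were other scalings, low-count filters, DESeq2 1.42.0, other cell filters, equal cells, a replicate block, phases within a library and each library left out.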

Additional observations from a re-analysis of the deposited data

Results flagged for a closer look

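In 39 °C replicate 1, Park7 had 173 CPM in all cells, far from the other 3 libraries of its group, the nearest of which had 204 CPM. Without it the log2 fold change of Park7 was -0.23. In the same library, Uchl1 had 12.2 CPM in G2M cells, where the other 3 had 2.24 to 3.27 CPM, on 6 UMIs in 29 cells. These were 2 of 70 groups of 4 examined, and chance flags about 1 in 20. The step of Uchl1 from G1 to S cells differed between the temperatures, by 0.95 on the log2 scale in edgeR, a value that was not past the threshold without 39 °C replicate 4 (0.64).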

How the results depend on the processing

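The 6 calls in all cells and the 5 in G1 cells held under every scaling, filter, cell set and DESeq2 fit tried. Leaving out a library gave 6 in all cells and 5 to 6 in G1 cells. Under these settings 48.7 to 72.9% of all genes were called in all cells and 37.3 to 57.1% in G1 cells. Libraries of the same replicate number were not alike throughout. In all cells the correlation of their deviations was -0.160, -0.121, -0.206 and 0.442 for replicates 1 to 4. Between libraries of different numbers it was -0.501 to 0.431. With the replicate block 6 members were called in all cells and 5 in G1 cells. The direction of Fbxo7 in G1 cells turned to 0.00087 without a low-count filter, 0.037 with phases assigned within each library, and leaving out a library gave -0.098 to 0.045, above 0 without 37 °C replicate 1 or 4 or 39 °C replicate 1 or 3. The phase results were less stable. With phases assigned within each library, 2 members were called in S against G1 at 39 °C (36.3% of all genes), 1 in G2M against G1 at 39 °C (23.8%), 2 in the difference for S (16.8%) and 3 in that for G2M (16.7%). The 1 was Park7 (-0.095), while Pink1 (-0.18) was not called and Atp13a2 turned to 0.14. RLE size factors and filterByExpr each left 1 in G2M against G1 at 39 °C (25.9% and 31.1% of all genes). Leaving out a library gave 1 to 2 members there (20.5 to 26.6% of all genes) and 3 in S against G1 at 39 °C (31.9 to 37.5%). At 37 °C it gave 2 to 4 in S against G1 (39.2 to 45.0%) and 4 to 6 in G2M against G1 (38.1 to 44.0%). For the difference in S it gave 0 to 1 (7.66 to 10.3%). Of 707 fitted values under alternatives, 62 turned direction, 1 of them of a member called as reported and 3 called under the alternative alone. Pink1 was among the latter, with differences of 0.38 for S and 0.38 for G2M. Counting limits Uchl1 most, at 3 to 30 UMIs per 39 °C library in S and G2M cells. The causes were not tested.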
